A study of Mus musculus with 28 samples.

Results

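The genes described here are the mouse replication histone genes, taken as every row of the gene count table whose symbol begins with Hist1h, Hist2h, Hist3h or Hist4h. They made up 71 of 37620 rows and carried 70 symbols, because Hist2h3c1 stood in 2 rows. By histone type they were 6 H1, 20 H2a, 19 H2b, 13 H3 and 13 H4 genes. Of these, 3 were annotated as pseudogenes (Hist1h2aj, Hist3h2bb-ps and Hist2h3c2), and of the 3 only Hist2h3c2 had enough counts to be tested. In the mm9 annotation 56 lay on chromosome 13, 10 on chromosome 3, 3 on chromosome 11 and 1 on chromosome 6, and the second Hist2h3c1 row, at 0 in every library, was not in that annotation.

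Poly(A) RNA was sequenced from cells of 2 genotypes, WT and K36M, each as embryonic fibroblasts (MEFs) at d0, as reprogramming intermediates in AGi medium on days labelled d2, d4, d6 and d8, as passaged induced pluripotent stem cells (iPSCs) in S/L medium, and as MEFs labelled noOKSM, that is, without the reprogramming factors Oct4, Klf4, Sox2 and Myc. K36M is a lysine-to-methionine change in the tail of histone H3, and the library names of the WT cells carry H3_3 where the others carry K36M. The labels give no promoter, inducing agent, clone or animal age. Each of the 14 groups held 2 libraries with 17507521 to 35622279 gene counts. The labels do not tell whether the replicates were grown separately, and p-values therefore rest on a spread between libraries that may be technical. The noOKSM library names carry another prefix than the rest, so that stage and library series cannot be told apart in comparisons of noOKSM with d0.

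Replication histone genes supply the core histones H2A, H2B, H3 and H4 and the linker histone H1 that package newly copied DNA, and are transcribed mainly in S phase. Their mRNAs usually end just after a short stem-loop that the stem-loop binding protein SLBP holds, with no poly(A) tail, so that selection for poly(A) RNA leaves most of them out. Some of these genes also make longer, polyadenylated mRNAs that read past the stem-loop, and such forms are known in cells that have left the cell cycle or differentiated.

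The stem-loop was looked for on the mRNA strand within 100 bases after the stop codon, as 16 bases that begin with GG, end with CC and hold the fixed letters TT, T and A of the loop region, with any base elsewhere. It was present in 63 of the 67 members with an annotated stop codon (94.0%) and in 57 of 21863 other protein-coding genes (0.261%). The 4 members without it were Hist2h2be, Hist2h2bb, Hist1h2an and Hist1h2al. The sequences below, each of 28 bases from mm9 and written as in the mRNA, are those of members described in the results, with the stem-loop in capitals.
Hist1h1c: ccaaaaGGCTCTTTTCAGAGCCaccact
Hist1h2bc: tccaaaGGCTCTTTTCAGAGCCacccac
Hist3h2ba: cccaaaGGCTCTTTTCAGAGCCaccttc
Hist1h3b: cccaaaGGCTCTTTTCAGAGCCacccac
Hist1h3c: aaaaaaGGCTCTTTTAAGAGCCacctaa
Hist1h4h: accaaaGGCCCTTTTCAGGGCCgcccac
Hist1h4i: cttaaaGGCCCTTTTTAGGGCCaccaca
Hist1h4a: accaaaGGCCCTTCTCAGGGCCgcccac
On mm9 they lay at chr13:23831375-23831402 (Hist1h1c, + strand), chr13:23776510-23776537 (Hist1h2bc, +), chr11:58762845-58762872 (Hist3h2ba, +), chr13:23844683-23844710 (Hist1h3b, +), chr13:23836910-23836937 (Hist1h3c, -), chr13:23623321-23623348 (Hist1h4h, +), chr13:22132829-22132856 (Hist1h4i, -) and chr13:23852663-23852690 (Hist1h4a, -). The 16 bases differed by histone type, in the stem or in the loop. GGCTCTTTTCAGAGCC, the form of Hist1h1c and Hist1h2bc, was found in 39 members and in no H4 gene, and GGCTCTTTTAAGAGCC, the form of Hist1h3c, in 9 members of the H1, H2a, H2b and H3 types. All 13 H4 genes had a stem-loop sequence not seen in the other types: 8 had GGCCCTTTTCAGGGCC, 2 had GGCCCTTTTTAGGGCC, 2 had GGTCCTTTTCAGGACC and Hist1h4a alone had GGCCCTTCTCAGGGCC.

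Members were grouped by where their annotation ended relative to the stem-loop, read from transcripts with the stem-loop within 100 bases after their own stop codon. Hist1h2bp, with 87 counts, thus stands among those ending near the stem-loop, though another of its transcripts reaches chr13:21881082. In 43 members the annotation ended less than 100 bases past the stem-loop or before it, and these held 6.77% of all member counts and had a median of 0.264 CPM (counts scaled to a common library size) per kb of annotated exon. In 20 members it reached 100 bases or more past it, and these held 89.6% of member counts and had a median of 0.614 CPM per kb. Hist1h1c and Hist1h2bc, with 35358 and 30353 counts, are among these 20, and the part of the annotated end in the counts was not tested. The poly(A) signal AATAAA stood in the last 40 bases of an annotated transcript in 11 of 67 members (16.4%), against 59.8% of other genes. The counts do not show where an mRNA ended, so whether a count came from a polyadenylated form or from carried-over mRNA that ends at the stem-loop was not tested.

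Members also differed in how much sequence they shared with other members. Among the 67 members with an annotated coding transcript, 6 had at least 90% of their 50-base windows in another member, and these had 0 to 5 counts in all and none was tested. The 14 members with under 20% of windows in another had a median total of 397 counts, the 26 with 20 to 50% a median of 118, and the 21 with 50 to 90% a median of 79. Hist1h1c shared 8.54% of its windows, Hist1h2bc 47.3%, Hist1h4h 45.8% and Hist1h3b 60.4%, while Hist3h2ba and Hist2h2be shared none. Sharing and counts did not go together in every member: Hist1h2bc had 30353 counts, whereas Hist2h2bb, Hist1h1t and Hist4h4, which shared none, had 27, 27 and 26. The part of shared sequence in the counts was not tested. How reads that match several places were counted is not given in the sources used here, so counts of single members with close copies are uncertain. Exons of Hist3h2a also overlapped those of Trim17 by 708 bases on the same strand, and exons of Hist1h2be overlapped Gm11398 by 163 and those of Hist1h2ac a 5S_rRNA gene by 108. Hist2h2aa1, with 0 counts and at least 90% of its windows shared, overlapped exons of Hist2h3c1 by 562 bases on the same strand. The part of such overlaps in the counts was not tested.

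**Figure D1:**
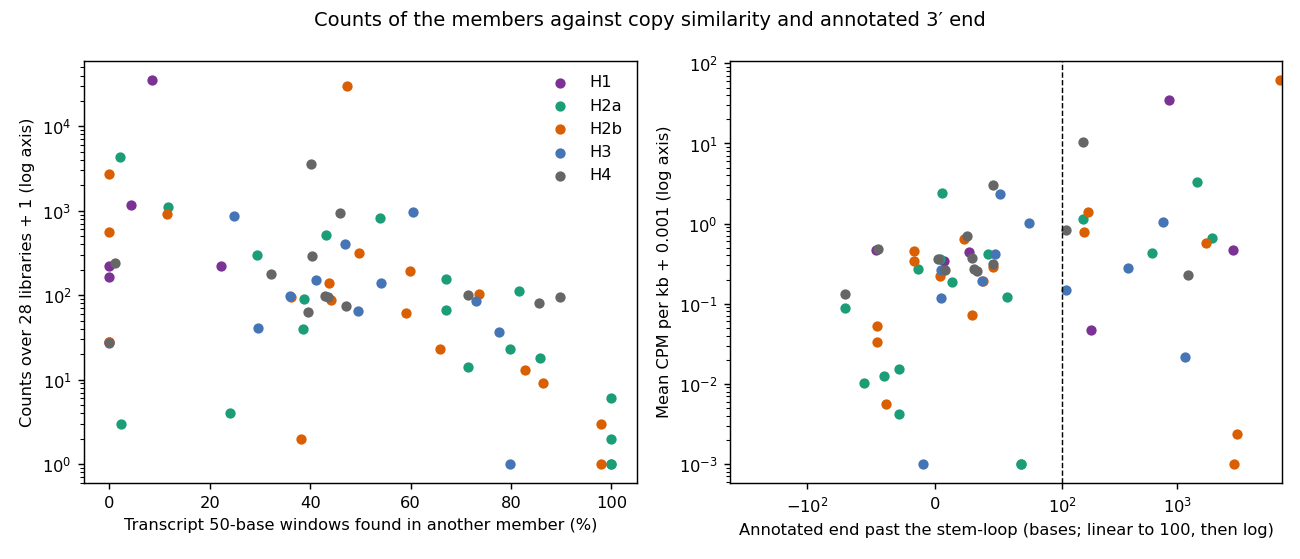
Left, total counts of each member over the 28 libraries (plus 1, log axis) against the percent of its 50-base transcript windows found in another member; right, mean CPM per kb (plus 0.001, log axis) against the bases by which its annotation runs past the stem-loop, with a dashed line at 100. Points are members coloured by histone type, and the members with at least 90% shared windows sit at 0 to 5 counts.

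The 71 genes drew 89551 counts in all 28 libraries together, and Hist1h1c and Hist1h2bc took 73.4% of them. Hist1h1c, a somatic H1 linker histone gene (chr13:23830676-23832235 of mm9, 1 exon, annotated 839 bases past its stem-loop), had 35358 counts. Hist1h2bc, an H2B gene (chr13:23776068-23784357, 2 exons, the annotated end 7826 bases past the stem-loop across an intron), had 30353. Per kb of exon the highest mean levels over all libraries were 62.0 CPM for Hist1h2bc, 34.4 for Hist1h1c, 10.4 for Hist1h4i, 3.31 for Hist3h2a and 2.99 for Hist1h4h. The filter on low counts kept 30 members for testing (5 H1, 6 H2a, 8 H2b, 6 H3 and 5 H4) and left out 41, of which 5 had no count in any library.

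The promoters of 60 members were matched to RefSeq windows on GRCm38.p6, from 250 bases before to 50 after the start, and searched on both strands. The octamer ATTTGCAT, read as ATGCAAAT on the other strand, is a known element of H2B promoters. It was present in 7 of 17 H2a and 7 of 16 H2b windows, in none of 6 H1, 9 H3 and 12 H4 windows, and in 518 of 26965 windows of other genes (1.92%). H2a and H2b genes lie head to head in pairs, and 1 octamer can stand in the windows of both, as shown by the 30 bases below from chr13:23571330-23571359 between Hist1h2bg and Hist1h2ae, written on each gene's strand.
Hist1h2bg: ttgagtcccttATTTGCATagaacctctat
Hist1h2ae: atagaggttctATGCAAATaagggactcaa
The TATA box, searched as TATAAA, was in 58.3% of members' windows and 15.6% of other genes' windows, and TTTCGCGC, an E2F-type site, in 9 of 60 (5 H2a and 4 H2b) and in 0.341%. These matches describe letters only.

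Summed over the 71 genes, the 2 libraries of WT cells had 250 and 197 CPM (d0), 119 and 117 (d2), 198 and 162 (d4), 186 and 204 (d6), 161 and 145 (d8), 26.3 and 27.5 (iPSCs) and 233 and 243 (noOKSM MEFs). The WT libraries thus dipped at d2, were high again at d4 and d6, and were lowest in iPSCs, at 12.0% of the d0 mean. In K36M cells the sum, with stages ordered as for WT, was 133 and 141, 89.4 and 86.0, 84.8 and 81.8, 120 and 93.5, 51.8 and 51.7, 26.9 and 27.1, and 242 and 301 CPM. Both K36M libraries lay below both WT libraries at d0 and from d2 to d8, and the ranges overlapped in iPSCs and in noOKSM MEFs. As a percentage of the WT mean the K36M mean, again by stage, was 61.4, 74.2, 46.3, 54.7 and 33.9 from d0 to d8, then 100.4 for iPSCs and 114 for noOKSM. Without Hist1h1c and Hist1h2bc the same percentages were 64.4, 80.3, 68.9, 102, 53.4, 90.6 and 73.7. At d6 this smaller sum was 60.9 CPM in K36M replicate 1, above both WT libraries (49.4 and 52.1), and 42.6 in replicate 2, below both. These libraries are of bulk RNA, in which fewer cells expressing a gene and less of its RNA per cell cannot be told apart.

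**Figure D2:**
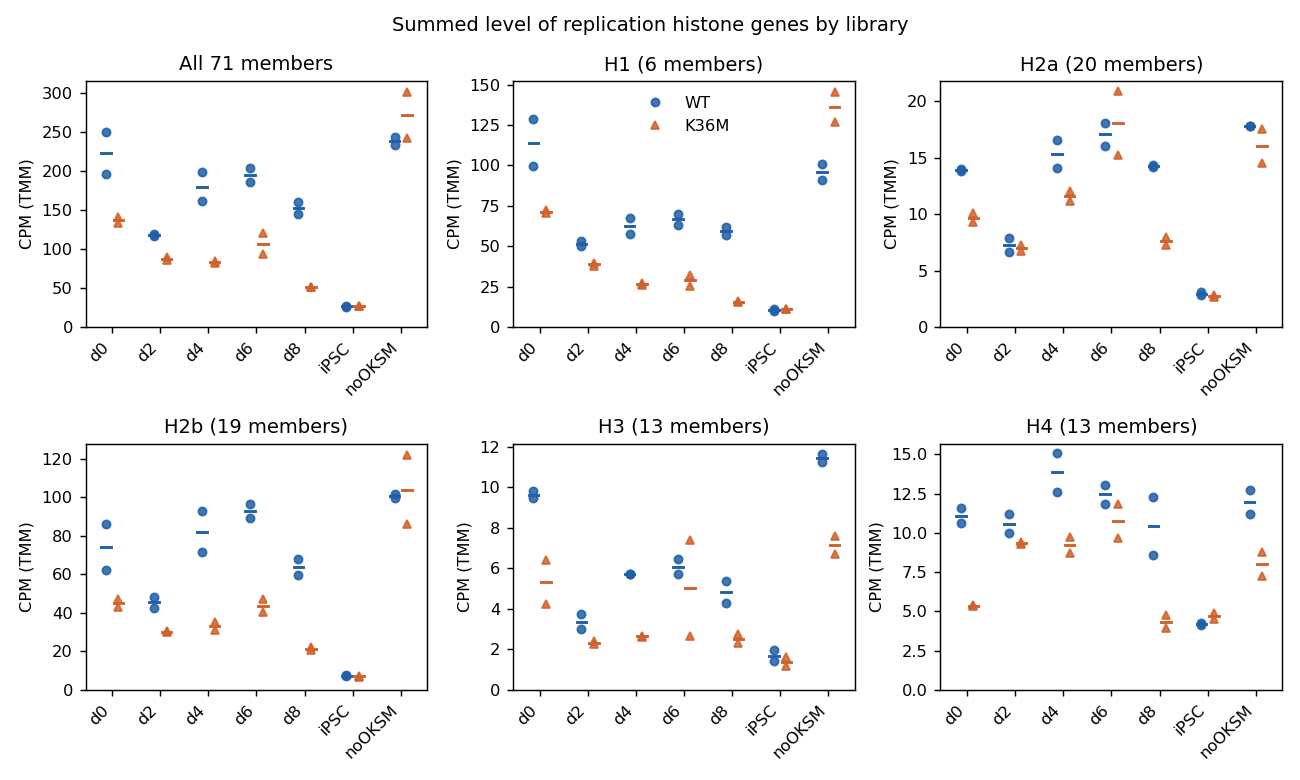
Summed CPM of all members and of each histone type in every library (symbols; circles WT, triangles K36M; bars are means of 2 libraries) by stage. K36M lies below WT at d0 and d2 to d8 in the sum of all members and in H1, H2b and H4. The genotypes overlap in iPSCs except in H4, where K36M has 4.88 and 4.52 CPM and WT 4.26 and 4.14. The H3 sum of K36M at d6 is split into 7.38 and 2.65 CPM.

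The sums of the histone types did not follow 1 course. In WT, the d2 mean as a percentage of d0 was 34.9 for H3, 45.1 for H1, 52.4 for H2a, 61.2 for H2b and 95.4 for H4, and by d6 it was 124.6 for H2b, 122.9 for H2a, 112.1 for H4, 63.1 for H3 and 58.5 for H1. In WT iPSCs it was 9.3 for H1, 9.9 for H2b, 17.5 for H3, 21.4 for H2a and 37.8 for H4. K36M as a percentage of WT at d8 was 26.6 for H1, 33.7 for H2b, 41.6 for H4, 52.5 for H3 and 53.5 for H2a. In noOKSM MEFs it was 142 for H1 but 62.5 for H3 and 66.8 for H4, with no overlap between genotypes in any of those 3 types. Single genes made up much of some sums. At WT d0, Hist1h1c had 124 and 95.2 CPM of H1 sums of 128 and 99.8. Hist1h2bc had 79.4 and 56.4 CPM of H2b sums of 86.2 and 62.4. In the H4 sum, Hist1h4i went from 5.10 and 5.31 CPM at WT d0 to 8.37 and 8.06 at WT d2. Hist1h4h went from 3.86 and 2.81 CPM to 0.776 and 0.502.

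Libraries of 1 group stood apart at d6. K36M d6 replicate 1 had 22.0 CPM summed over the 43 members annotated to end near the stem-loop against 8.47 in replicate 2, a ratio of 2.59, while the WT d6 libraries had 9.83 and 10.9. Over the 41 untested members it had 9.38 CPM, against 2.93 in replicate 2 and 1.57 to 3.08 in the libraries of the other groups. The members annotated past the stem-loop differed less, with 92.5 and 78.6 CPM. Chi-square per degree of freedom over all tested genes between replicates was 57 in the K36M d6 group, against 2.05 (K36M d0) to 26.5 (K36M noOKSM) in the other groups. Which of the replicates is typical was not tested, and for d6 the counts of calls and the calls that this library changed are given with and without replicate 1. Without it the log2 fold change of K36M to WT was -1.44 for Hist1h1c, -1.55 for Hist1h2bc, -2.38 for Hist1h4h, -2.74 for Hist1h2be and -2.42 for Hist1h3b. Without replicate 2 instead, these were -1.28, -1.30, -1.66, -1.60 and -1.10. Hist1h1b, Hist1h1e and Hist1h3e were at -0.70, 0.23 and -1.51 without replicate 1 and at 2.18, 1.66 and 1.64 without replicate 2.

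At d0, 9 of 30 tested members were lower in K36M than in WT and none was higher (edgeR quasi-likelihood test, adjusted p below 0.05), where 15.9% of all 16932 genes tested differed, 7.60% higher and 8.31% lower. The 9 spanned all 5 types: Hist1h4a, Hist1h4h, Hist1h3b, Hist1h2ac, Hist1h3d, Hist1h2ab, Hist1h4i, Hist1h2bc and Hist1h1c, in order of the size of the difference. Without 1 of the 4 libraries the count was 6 or 7. The median log2 fold change of the 30 was -0.56 and that of all genes 0.00. Macrophage markers moved with this comparison: 2 of 5 were lower in K36M, none was higher, and their summed level was 16.6 and 17.6 CPM in WT and 7.55 and 8.61 in K36M. Fibroblast markers summed to 18933 to 23502 CPM in WT and 26039 to 26290 in K36M, with 3 of 5 higher. Their part in the histone difference was not tested.

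At d2, 4 members were lower (Hist1h4h, Hist2h2be, Hist1h2bc and Hist1h1c) and none higher, where 20.1% of all genes differed, 10.4% lower and 9.74% higher, and the count was 0 without K36M d2 replicate 2, 1 without K36M d2 replicate 1 and 2 without WT d2 replicate 1. At d4, 11 were lower and 2 higher, against 25.8% and 27.1% of all genes (52.9% in either direction). At d8, 14 were lower and 1 higher, against 29.0% and 31.6% of all genes (60.6% in either direction), and the median log2 fold change was -0.96, against 0.04 over all genes. Fibroblast markers were lower in 5 of 5 at each of these days and pluripotency markers higher in 2 of 5 at d2 and in 5 of 5 at d4 and d8, and their part in the histone differences was not tested. The fibroblast markers summed to 1719 to 1834 CPM in WT d8 and 100.1 to 118 in K36M d8, and the pluripotency markers to 189 to 195 and 1109 to 1138.

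At d6, 11 members were lower and 7 higher in K36M, against 33.7% and 37.3% of all genes (70.9% in either direction). Without K36M d6 replicate 1 the counts were 11 and 5. Hist1h2ae, Hist1h4d, Hist1h2ad and Hist2h4 then no longer passed, Hist1h1d and Hist2h3c2 passed as lower, and Hist1h1a, Hist1h2bj, Hist1h2bk, Hist1h3c and Hist3h2ba still passed as higher. Hist1h2bj had 3 and 1 counts in the WT d6 libraries and 34 and 17 in K36M, and Hist1h2bk had 1 and 2 against 18 and 17. Only in K36M d6 did both libraries of a group hold at least 10 counts of Hist1h1a, Hist1h2bj or Hist1h2bk. Hist1h2bj and Hist1h2bk were thus kept for testing by the group in which they were called higher, also in the fit without replicate 1. Their calls are therefore not independent of the filter. The ratio of K36M to WT counts, scaled by library size, was 11.4 (95% interval 4.21 to 43.6, counting error only) for Hist1h2bj and 10.5 (3.30 to 53.2) for Hist1h2bk. At d6 the fibroblast markers were lower in 5 of 5, with summed levels of 1425 to 1506 CPM in WT and 149 to 196 in K36M. The pluripotency markers were higher in 5 of 5, with 16.7 to 18.7 CPM in WT and 687 to 1189.6 in K36M, and the part of either list in the histone differences was not tested.

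In iPSCs no member differed between genotypes (edgeR, 0 of 30 at adjusted p below 0.05, where 1.25% of all genes differed, 0.756% higher and 0.490% lower; 1 of 30 at an unadjusted p below 0.05; DESeq2 also called 0). In noOKSM MEFs 6 were lower in K36M (Hist1h4a, Hist1h2ab, Hist1h3b, Hist1h2be, Hist1h2bg and Hist1h4h) and 2 higher (Hist1h1c and Hist3h2a), against 16.7% and 18.2% of all genes (35.0% in either direction), and 5 in all passed without WT noOKSM replicate 2. The Hist3h2a call was lost in the fit on 2 groups alone (adjusted p = 0.0527) and without WT noOKSM replicate 2 (0.125) or K36M noOKSM replicate 2 (0.235). Over d2 to d8 in a shared fit of 16 libraries, 28 members were tested, of which 15 were lower and 3 higher (Hist1h3c, Hist3h2ba and Hist1h2bk), against 28.2% and 30.2% of 15954 genes (58.5% in either direction). Of these, Hist1h2bk reached 10 counts only in the K36M d6 libraries, so its call is not independent of the filter. The K36M difference at some other stage was unlike that at d0 in 13 of 30 members by 1 joint test over 6 coefficients, against 78.3% of all genes.

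**Figure D3:**
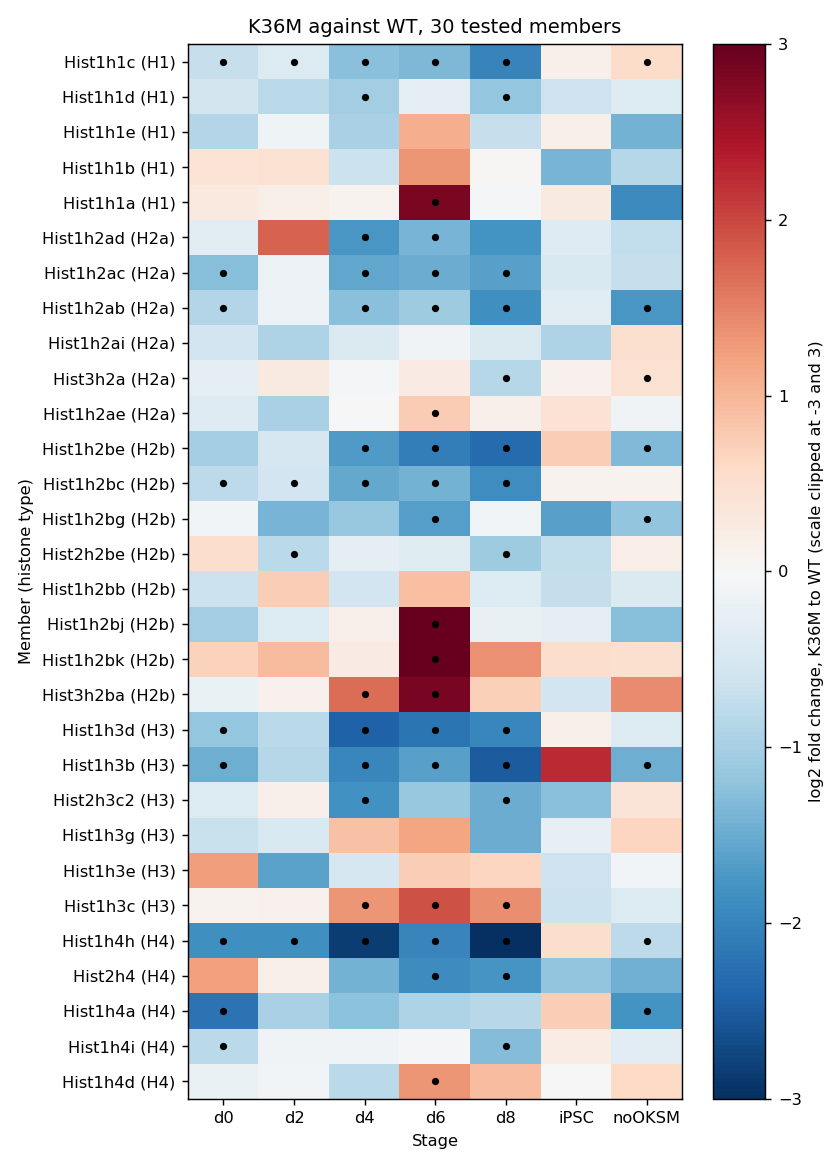
Log2 fold change of K36M to WT (colour, clipped at -3 and 3) for the 30 tested members in rows, grouped by histone type, at the 7 stages in columns; a black dot marks an adjusted p below 0.05. The called differences at d0 and d2 are all lower in K36M, the iPSC column has no dot, and 7 members are called higher at d6.

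Hist1h1c was the linker histone gene with the most counts. Its WT libraries had 124 and 95.2 CPM (d0), 47.7 and 50.5 (d2), 64.7 and 55.1 (d4), 60.3 and 67.2 (d6), 59.6 and 54.3 (d8), 8.27 and 9.77 (iPSCs) and 85.6 and 96.3 (noOKSM). In K36M it stood at 67.9 and 68.4, 37.7 and 36.3, 25.8 and 24.6, 26.2 and 23.5, 14.6 and 13.9, 9.96 and 10.2, and 124 and 142 CPM in the same order. The genotypes did not overlap at any stage: the K36M libraries lay below WT from d0 to d8 and above it in iPSCs and noOKSM. The log2 fold change of K36M to WT on d0 was -0.69 ± 0.12 (SE, adjusted p = 0.000174). It was -0.41 ± 0.12 for d2 (0.0153), -1.25 ± 0.12 for d4 (8.18e-09), -1.36 ± 0.12 for d6 (1.01e-09) and -2.0 ± 0.13 for d8 (4.58e-12). For iPSCs it was 0.16 ± 0.14 (0.778) and for noOKSM 0.55 ± 0.11 (0.000585). The call at d2 was lost without WT d2 replicate 2 or either K36M d2 library (adjusted p 0.0668 to 0.116). The difference varied among stages (joint adjusted p = 9.09e-11).

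Other linker genes were far lower. Hist1h1d, another somatic H1 gene, fell in WT from 2.90 and 3.83 CPM at d0 to 0.802 and 0.621 in iPSCs (log2 fold change -2.25 ± 0.31, adjusted p = 8.22e-07) and was lower in K36M at d4 (-1.05 ± 0.31, adjusted p = 0.00638) and d8 (-1.17 ± 0.37, adjusted p = 0.00855). The d4 call was lost without K36M d4 replicate 1 (-0.83, adjusted p = 0.0814). At d6 its K36M libraries were split into 2.58 and 1.04 CPM around the WT values of 2.11 and 2.21, and without the first the log2 fold change was -1.05 (adjusted p = 0.00206), whereas with both libraries the test was not passed. Hist1h1b had 0.102 to 0.551 CPM in the WT libraries and passed in no comparison with all libraries, though at d6 it passed as higher without K36M d6 replicate 2 (2.18, adjusted p = 0.00434). H1f0, the replacement linker histone gene that is polyadenylated and not tied to S phase, went the other way at d0, where it was higher in K36M (24.4 ± 0.568 against 13.5 ± 1.04 CPM, SD, n = 2; log2 fold change 0.86 ± 0.13, adjusted p = 7.83e-05), and it was also higher at d4, d6 and in noOKSM.

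Of the H2a genes, Hist3h2a had the most counts, and its exon overlap with Trim17 leaves its source uncertain. In WT it fell at d2, to 3.19 and 4.09 CPM from 7.73 and 7.09 at d0 (-1.02 ± 0.16, adjusted p = 8.56e-06), and stood at 8.97 and 7.45 at d4. K36M was close to WT at d4 (7.68 and 8.03 CPM) and lower at d8 (4.89 and 4.16 against 8.42 and 8.01; log2 fold change -0.86 ± 0.15, adjusted p = 4.73e-05). Hist1h2ac, with an annotated end 2010 bases past the stem-loop, was lower in K36M at d4 (0.984 and 1.22 against 3.82 and 2.85 CPM; -1.57 ± 0.34, adjusted p = 0.000444), d6 and d8, and at d0 in the fit of all libraries but not without WT d0 replicate 1 or either K36M d0 library (adjusted p 0.0775 to 0.14). Hist1h2ab, annotated to end 6 bases past the stem-loop, was lower in K36M at d0, d4, d6, d8 and in noOKSM, where it had 1.44 and 1.22 CPM against 4.51 and 4.36 (-1.73 ± 0.22, adjusted p = 1.95e-06). Its d0 call was lost without WT d0 replicate 2 or either K36M d0 library (0.0644 to 0.205) and its d6 call without K36M d6 replicate 2 (0.0817). Hist1h2ae passed only at d6 (0.75 ± 0.32, adjusted p = 0.0395). That call was lost without K36M d6 replicate 1 (0.37, adjusted p = 0.38), without WT d6 replicate 1 (0.0796) or replicate 2 (0.194), with no filter on low counts (0.0777), in the fit on 2 groups alone (0.152) and with DESeq2 (0.146).

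Of the H2b genes, Hist1h2bc followed a course in WT unlike that of Hist1h1c. Its WT libraries had 79.4 and 56.4 CPM (d0), 38.4 and 34.5 (d2), 80.9 and 61.2 (d4), 76.1 and 84.8 (d6), 57.0 and 48.3 (d8), 4.06 and 4.26 (iPSCs) and 92.5 and 89.6 (noOKSM). In the same order K36M had 37.6 and 41.6, 24.3 and 24.6, 26.2 and 22.5, 32.8 and 27.4, 15.4 and 13.5, 4.36 and 4.67, and 79.5 and 116 CPM. The WT level at d4 and d6 overlapped d0, while K36M stayed below every WT library of the same stage from d0 to d8. The log2 fold change was -0.78 ± 0.17 at d0 (adjusted p = 0.00198), -1.54 ± 0.17 for d4 (6.63e-08), -1.42 ± 0.17 for d6 (1.01e-07) and -1.86 ± 0.18 for d8 (4.72e-09). The joint test of a difference among stages gave an adjusted p of 5e-07. The d0 call was lost without WT d0 replicate 1 (-0.51, adjusted p = 0.103), and the d2 call (-0.57 ± 0.17, adjusted p = 0.018) was lost without WT d2 replicate 1 or either K36M d2 library (0.0851 to 0.136).

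Hist1h2be, an H2B gene with an annotated end 1789 bases past the stem-loop, was lower in K36M at d4, d6, d8 and noOKSM, for example 0.800 and 0.361 CPM against 2.85 and 2.02 at d6 (-2.08 ± 0.45, adjusted p = 0.000254). Hist2h2be, an H2B gene on chromosome 3 with an annotated AATAAA, no match to the stem-loop and no 50-base window shared, had another course. In WT it rose from 2.15 and 1.73 CPM at d0 to 6.86 and 5.63 at d2 and stayed at 6.38 to 7.82 up to d8, with log2 fold changes against d0 of 1.69 ± 0.19 (adjusted p = 8.99e-08) at d2 to 1.92 ± 0.19 (6.31e-09) at d8. In K36M it was lower than WT at d2 (4.14 and 2.93 CPM; -0.81 ± 0.18, adjusted p = 0.00154) and at d8 (3.60 and 3.44 against 6.76 and 7.82; -1.06 ± 0.17, adjusted p = 1.24e-05). The d2 call was lost without K36M d2 replicate 2 (adjusted p = 0.0564).

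Hist3h2ba is an H2B gene on chromosome 11 with an annotated end 166 bases past the stem-loop and AATAAA near it. It was the 1 tested member called higher in WT iPSCs than at WT d0, while 22 of 30 had a negative log2 fold change. It had 2 and 1 counts in the WT d0 libraries and 17 and 20 in WT iPSCs, a ratio of 10.7 scaled by library size (95% interval 3.38 to 54.2, counting error only). In K36M it stood at 1.53 and 1.41 CPM at d4 against 0.849 and 0.190 in WT, and at 3.87 and 3.94 CPM at d6 against 0.368 and 0.722, so that the genotypes did not overlap on either day. The log2 fold change was 1.69 ± 0.44 at d4 (adjusted p = 0.00247) and 2.84 ± 0.38 at d6 (7.29e-07). The d6 value was 2.85 without replicate 1, and the d4 call was lost without WT d4 replicate 2 (0.78, adjusted p = 0.145). By d8 K36M had 1.82 and 1.45 CPM, WT 1.20 and 0.833, and the test was not passed (0.72 ± 0.36, adjusted p = 0.0936).

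**Figure D4:**
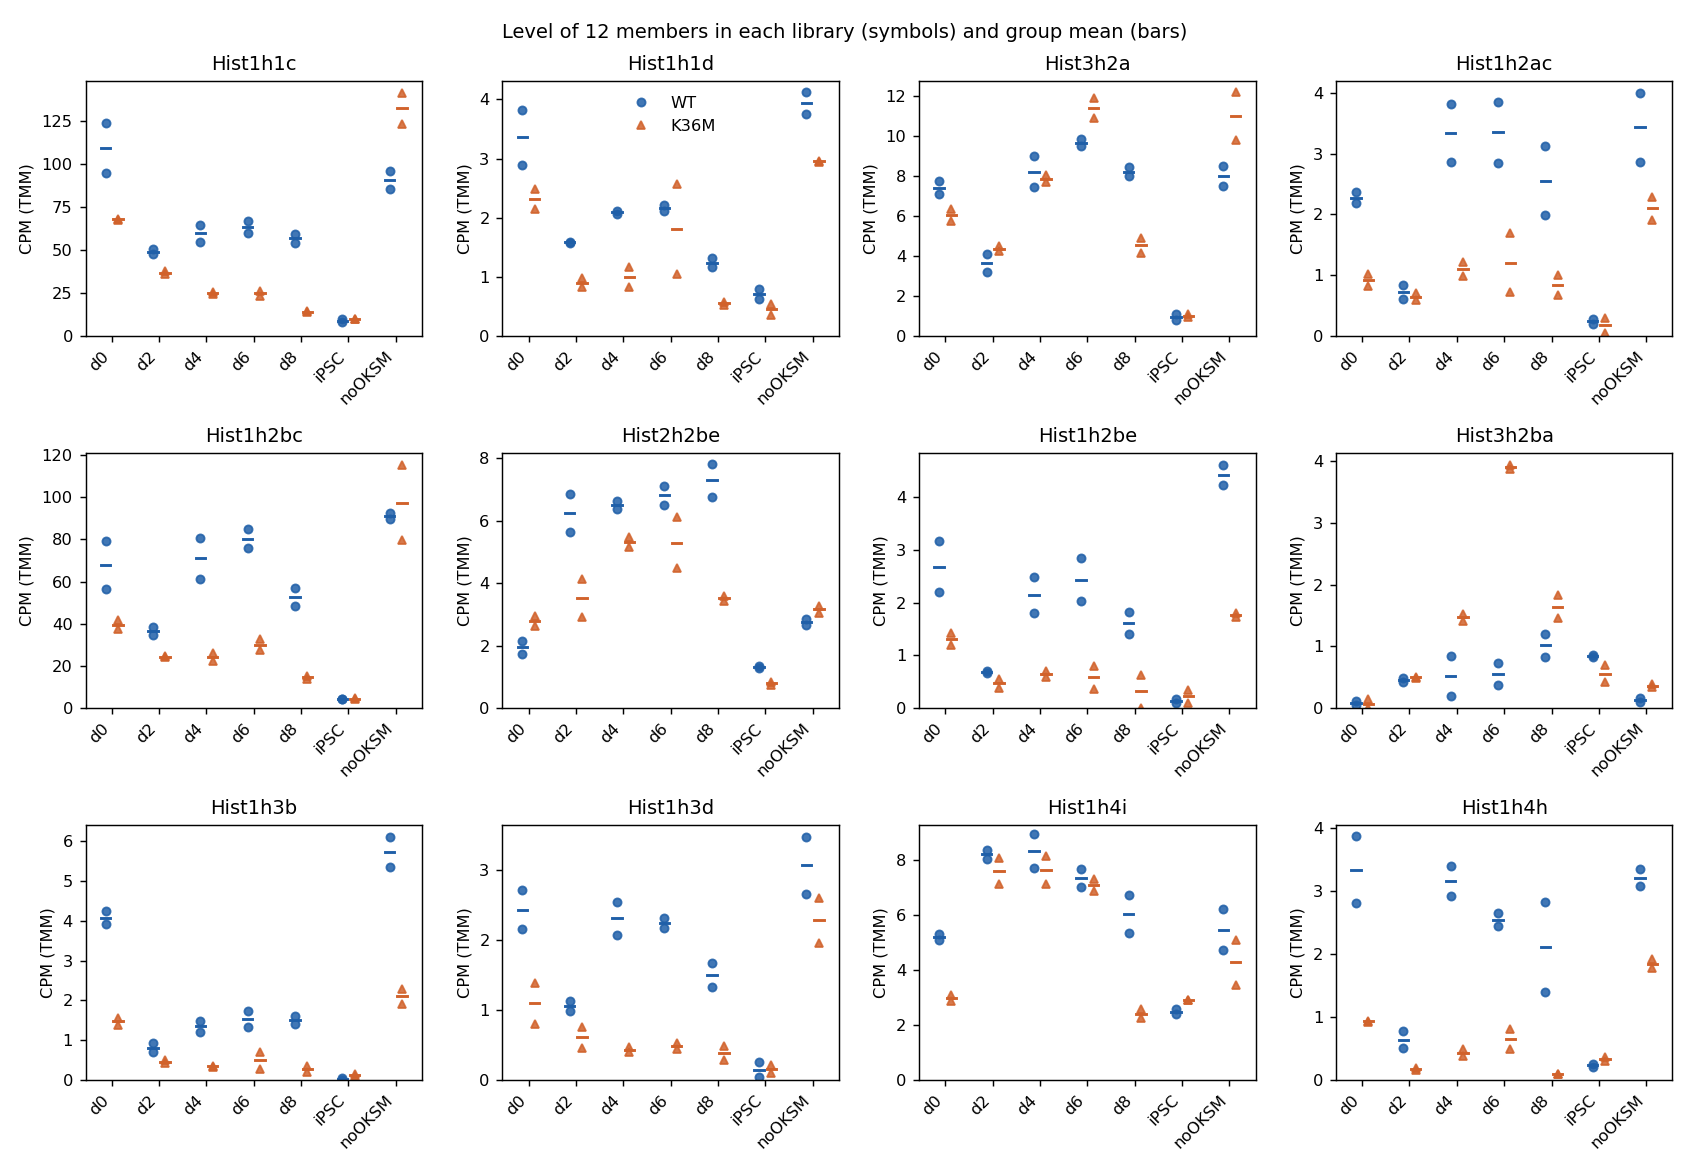
CPM of 12 members in each library (circles WT, triangles K36M) and the mean of 2 libraries (bars) by stage, on linear axes from 0 that differ between panels. Hist1h1c, Hist1h2bc, Hist1h3d and Hist1h4h are lower in K36M from d0 to d8, Hist2h2be rises in WT after d0, and Hist3h2ba is highest in K36M at d6.

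Of the H3 genes, Hist1h3b and Hist1h3d encode replication-coupled H3, the counterpart of the H3.3 made from H3f3a and H3f3b. Hist1h3b was at 3.92 and 4.24 CPM in WT d0 and 1.38 and 1.57 in K36M (-1.46 ± 0.25, adjusted p = 0.000174), and lower in K36M also at d4, d6, d8 (-2.50 ± 0.38, adjusted p = 4.77e-06) and noOKSM. In WT iPSCs it had 1 and 0 counts, against 73 and 83 at d0, a ratio of 0.00556 scaled by library size (95% interval 0.00014 to 0.0314, counting error only). Hist1h3d, annotated 752 bases past the stem-loop, was lower in K36M at d0 and most so at d4 (0.394 and 0.470 against 2.07 and 2.54 CPM; -2.42 ± 0.36, adjusted p = 5.66e-06). Its d0 call (-1.15 ± 0.31, adjusted p = 0.0121) was lost without WT d0 replicate 2 or K36M d0 replicate 1. Hist1h3c, with the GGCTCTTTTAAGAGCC stem-loop, was the H3 gene that was higher in K36M. It had 2.89 and 1.08 CPM against 0.414 and 0.626 at d6 (1.91 ± 0.42, adjusted p = 0.000352, and 1.06 without K36M d6 replicate 1). At d8 it had 0.767 and 0.871 against 0.207 and 0.376 (1.40 ± 0.50, adjusted p = 0.0201). Its calls at d4 (1.32 ± 0.55, adjusted p = 0.0487) and d8 were lost in some fits without 1 library, at d4 in each of the 4.

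Of the H4 genes, Hist1h4h showed the largest called difference between genotypes among the tested members. Its WT libraries had 3.86 and 2.81 CPM (d0), 3.40 and 2.92 (d4), 2.44 and 2.65 (d6) and 2.82 and 1.40 (d8), and those of K36M 0.938 and 0.921, 0.492 and 0.376, 0.800 and 0.482, and 0.0959 and 0.0968. No K36M library reached a WT library of the same stage in these 4. The log2 fold change was -1.83 ± 0.30 at d0 (adjusted p = 0.000115), -2.84 ± 0.34 at d4 (2.39e-07), -1.99 ± 0.32 at d6 (8.64e-06) and -4.32 ± 0.48 at d8 (6.76e-08), where K36M had 2 counts in each library against 68 and 52 (ratio 0.0492, 95% interval 0.0132 to 0.129). Its d2 call (-1.84 ± 0.54, adjusted p = 0.0174) was lost without WT d2 replicate 1 or either K36M d2 library, and its noOKSM call (-0.79 ± 0.25, adjusted p = 0.0172) in each fit without 1 library.

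Hist1h4i, the H4 gene with the most counts, behaved otherwise. In WT it was higher at d2 (8.37 and 8.06 CPM) and d4 (8.97 and 7.74) than at d0 (5.10 and 5.31), with a log2 fold change of 0.66 ± 0.17 at d2 (adjusted p = 0.00185). K36M was lower at d0 (3.08 and 2.86 CPM; -0.81 ± 0.19, adjusted p = 0.00507), overlapped WT at d2, d4 and d6 and was lower at d8 (2.25 and 2.56 against 6.72 and 5.35; -1.31 ± 0.19, adjusted p = 2.81e-06). The d0 call was lost without K36M d0 replicate 2 (adjusted p = 0.0548). Hist1h4a was lower in K36M at d0 (0.313 and 0.276 against 1.56 and 1.22 CPM; -2.22 ± 0.46, adjusted p = 0.00156) and in noOKSM (-1.80 ± 0.41, adjusted p = 0.00147).

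Along the WT series against d0, which all these comparisons share as control, 13 members fell and 3 rose at d2, where 30.7% of all genes fell and 27.1% rose (57.8% together). At d4, 6 fell and 3 rose, against 29.1% and 28.3% (57.4%). At d6, 6 fell and 5 rose, against 29.9% and 29.1% (59.0%), and at d8, 9 fell and 3 rose, against 31.4% and 32.7% (64.0%). Without WT d6 replicate 2 the d6 count was 4 in all, and without WT d8 replicate 1 the d8 count was 7. In iPSCs 19 of 30 were called lower and 1 higher, against 37.4% and 40.1% of all genes (77.5% together). The median log2 fold change was -2.18 for the members and 0.08 for all genes. Hist2h2be, with the smallest of those 19 falls (-0.56 ± 0.24, adjusted p = 0.0423), was not called under 7 of its alternatives. The 41 untested members summed to 2.36 and 2.53 CPM in WT iPSCs and 1.72 and 2.50 at d0. The filter left these out for their few counts, so they had little room to fall and are no contrast to the tested members. Tested members such as Hist1h3b (73 and 83 counts at WT d0, 1 and 0 in WT iPSCs) passed the filter through stages other than iPSCs. In noOKSM MEFs 1 member, Hist1h2ab, was higher than at d0 (4.15% of all genes were, 4.06% were lower and 8.20% differed), and it did not pass without WT d0 replicate 1 or either noOKSM library, nor with DESeq2.

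Genes that act on histone mRNA and on S phase were read in the same libraries, each list taken whole. Of 20 DNA replication genes, 18 rose and none fell in WT at d2 (27.1% and 30.7% of all genes), and 17 rose and 2 fell in iPSCs (40.1% and 37.4%). Their summed CPM in WT iPSCs was 272.5% of d0, while the histone sum was 12.0%, and 30.2% without Hist1h1c and Hist1h2bc. In K36M against WT, none of the 20 was lower on d4, d6 or d8, where 15, 18 and 15 were higher, against 27.1%, 37.3% and 31.6% of all genes higher and 25.8%, 33.7% and 29.0% lower. Mcm2, a subunit of the replicative helicase, was at 117 ± 3.02 CPM in WT and 264 ± 17.3 in K36M at d4 (SD, n = 2; log2 fold change 1.18 ± 0.08, adjusted p = 3.15e-11), and Pcna, the sliding clamp, was higher in K36M at d4 (0.34 ± 0.13, adjusted p = 0.0293) and d6. All 6 genes of a list of replication-coupled histone chaperones (among them Nasp and Chaf1b) and the histone acetyltransferase Hat1 were higher in K36M at d4, d6 and d8. From d4 to d8 the histone sum was thus below WT in every K36M library and the replication sum above it.

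**Figure D5:**
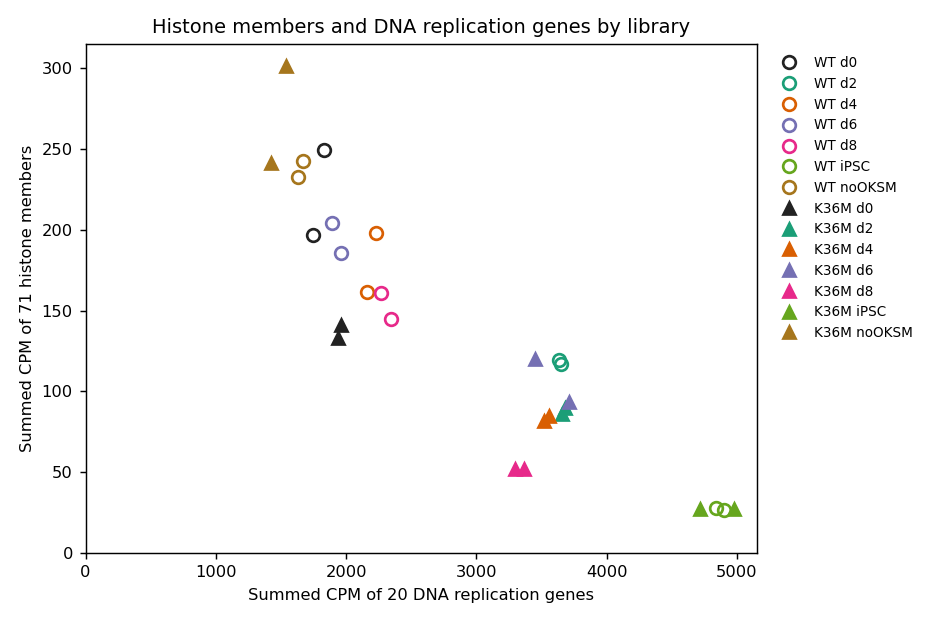
Summed CPM of the 71 histone genes against summed CPM of 20 DNA replication genes, 1 point per library (open circles WT, filled triangles K36M, colour for stage). Libraries of d0 and noOKSM MEFs stand at the left, iPSC libraries at the lower right, and K36M libraries of d4 to d8 lie below and to the right of the WT libraries of the same day.

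Of 22 genes of histone mRNA processing and regulation, 14 were higher and 1 lower in K36M at d4 (27.1% and 25.8% of all genes), then 11 and 3 for d6 (37.3% and 33.7%) and 10 and 1 for d8 (31.6% and 29.0%). In WT iPSCs 15 rose and 5 fell against d0, where 40.1% of all genes rose and 37.4% fell. Slbp, which encodes the protein that binds the stem-loop, rose in WT iPSCs from 59.4 ± 5.04 to 138 ± 8.59 CPM (SD, n = 2 here and below) (1.22 ± 0.12, adjusted p = 2.38e-09) and was higher in K36M at d4 (83.2 ± 0.893 against 57.0 ± 2.95 CPM; 0.55 ± 0.12, adjusted p = 0.000427), d6 and d8. At d0, where 9 members were lower in K36M, Slbp did not pass (55.1 ± 1.11 against 59.4 ± 5.04 CPM; -0.11 ± 0.12, adjusted p = 0.602). Zfp473, a zinc finger protein of the U7 processing machinery, was at 0.911 ± 0.212 CPM in WT and 9.85 ± 0.355 in K36M at d4, and its log2 fold change over d2 to d8 was 2.52 ± 0.25 (adjusted p = 1.61e-06). Npat, the coactivator of replication histone genes, was higher in K36M at d4 (0.47 ± 0.19, adjusted p = 0.0429) and d8, and Eri1, an exonuclease of histone mRNA decay, at d4 (0.52 ± 0.13, adjusted p = 0.00175).

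Of 11 replacement histone genes, 8 rose and 3 fell in WT iPSCs against d0 (40.1% and 37.4% of all genes). In K36M against WT, 9 were higher and none lower at d6 (37.3% and 33.7% of all genes), and 4 were higher and 3 lower at d8 (31.6% and 29.0%). H2afx, the gene of the damage-marked H2A.X, was at 63.3 ± 3.18 CPM in WT and 135 ± 3.40 in K36M at d4, and H2afv and Cenpa were higher in K36M over d2 to d8 (0.69 ± 0.26, adjusted p = 0.0317, and 0.88 ± 0.16, adjusted p = 0.00029). H3f3a, which encodes H3.3, was at 46.2 ± 4.13 CPM in WT and 47.1 ± 2.32 in K36M at d0 and at 193 ± 2.56 and 121 ± 9.00 at d8. Of the markers that define the labelled cells, the collagen gene Col1a1 was at 10681 ± 2271 CPM at WT d0, and Zfp42, a pluripotency marker, was at 0 at d0 in both genotypes and at 82.2 ± 0.681 CPM in WT iPSCs, in which fibroblast markers still summed to 772 to 1222 CPM.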

How the data were processed

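Counts per gene in 28 RNA-seq libraries (2 for each of 14 groups) were used as the authors deposited them. Libraries were made after poly(A) selection with a strand-marking kit, per the labels' protocols. STAR 2.5.0, HTSeq 0.11.2, edgeR and mm9 are named in the submitters' processing notes. Which annotation and strand setting the counting used, and whether multi-mapped reads were counted, is not given in the sources used here. Genes with a count of at least 10 in enough libraries and 15 in all were kept with edgeR's filterByExpr, scaled by TMM and tested in 1 quasi-likelihood fit on all 14 groups (edgeR 4.0.16, R 4.3.3) with Benjamini-Hochberg adjustment over all genes tested. The difference shared by d2 to d8 came from a fit on 16 libraries with day as a factor. CPM are counts divided by TMM-scaled library size. The scripts were tested on simulated data. Alternatives were DESeq2 1.42.0, its size factors, no filter, a replicate block, fits on 2 groups alone and fits without each library. Stem-loops and gene ends were read from mm9 with GENCODE annotation, promoters from RefSeq. Members named are, for each type, the 3 with the highest mean CPM, and for each K36M comparison the 3 largest called rises and falls among members with a mean of at least 1 CPM and groups that did not overlap; Hist1h1a, Hist1h2bj, Hist1h2bk and the others named only beside a count were chosen after their values were seen. The members and gene lists were chosen with earlier results of these data known. The library totals limit precision for members with few counts, and intervals cover counting error only.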

Additional observations from a re-analysis of the deposited data

Results flagged for a closer look

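For 11 of the named members the K36M difference at some other stage was unlike that at d0 by the joint quasi-likelihood test of edgeR over 6 coefficients. The adjusted p was 9.09e-11 for Hist1h1c, 5e-07 for Hist1h2bc, 6.73e-05 for Hist1h4h, 0.000181 for Hist3h2a, 0.000186 for Hist2h2be, 0.000329 for Hist1h4i and 0.00088 for Hist3h2ba. It was 0.00189 for Hist1h3d, 0.0118 for Hist1h3c, 0.0156 for Hist1h3b and 0.0164 for Hist1h2ab. Hist1h2ab did not pass without K36M d2 replicate 2 (0.0583) or with DESeq2 (0.0879), and Hist1h3b did not pass without K36M iPSC replicate 2 (0.0652). Of all genes 78.3% passed the same test, so that these calls do not set the histone genes apart.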

How the results depend on the processing

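No named call changed direction under the alternatives run: of 1464 values of such calls, 1360 kept their side of the threshold and 104 lost it, 79 of these in fits without 1 library. The 1464 values include adjusted p-values of the joint test, which has no direction and so could not change it. For the other comparisons, alternatives in which a member was not tested are left out of this total. Values that had not passed did change sign at d6: Hist1h1b was at 1.33 and, without K36M d6 replicate 1, at -0.70, and Hist1h1d at -0.27 and, without replicate 2, at 0.25. The count of members called between WT d6 and d0 was 7 with DESeq2, against 11. That between WT noOKSM and d0, against 1, was 4 with no filter on low counts, 0 in the fit on 2 groups alone and 0 with DESeq2. The log2 ratio of the summed CPM of K36M to WT was -0.38 at d2 with plain library totals (-0.43 with TMM), and without Hist1h1c it was -1.35 at d8 (-1.56 with it), -0.078 in iPSCs (0.01) and -0.083 in noOKSM (0.19), the last 2 with a change of sign; the cause was not tested. In fits without 1 library the counts for K36M against WT were 6 to 7 (d0), 0 to 3 (d2), 10 to 12 (d4), 15 to 21 (d6), 13 to 14 (d8), 0 to 0 (iPSCs) and 5 to 8 (noOKSM). For WT against d0 they were 15 to 16 at d2, 6 to 8 at d4, 4 to 9 for d6, 7 to 11 for d8, 17 to 18 for iPSCs and 0 to 2 for noOKSM. For the joint test they were 12 to 18, and for the difference shared by d2 to d8 17 to 19. The log2 ratios of the sums without 1 library were -0.87 to -0.52 at d0, -0.46 to -0.40 at d2, -1.25 to -0.96 at d4, -1.06 to -0.70 for d6, -1.64 to -1.48 for d8, -0.03 to 0.04 for iPSCs and 0.02 to 0.34 for noOKSM. Where a fit left 1 library in a group, that library was assumed to vary like the other groups. Replicate numbers did not pair the samples (correlations of deviations -0.22 to 0.215, median 0.00314, above 0.1 in 7 of 91 pairs of groups). With the replicate block the counts for K36M against WT were 9 at d0, 4 at d2, 12 at d4 (Hist1h3c lost, adjusted p = 0.0551), 18 for d6, 15 for d8, 0 for iPSCs and 8 for noOKSM, and those for WT against d0 were 16, 9, 11, 12, 20 and 1, with 13 in the joint test and 18 over d2 to d8. Depth limits members with few counts: 40 of 71 had under 100 counts over all libraries.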
